A study of Mus musculus with 6 samples.

Results

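Lpl, Cd36, Fabp3, Slc27a1 and Acsl1, 5 genes that carry long-chain fatty acids from circulating lipoproteins to acyl-CoA in the muscle fiber, were examined in the tibialis anterior (TA) muscles of NS-DADm and WT mice. They were picked by gene name for these roles, with earlier results of these data known, and are 5 of the 709 genes in the deposited table. RNA was sequenced from 6 mice, 3 of each genotype, with a library for each mouse. All 6 were C57BL/6 by the labels (C57BL/6 J in the study's methods) and 21 weeks old, and the methods state male mice unless noted otherwise. WT mice carried none of the mutations described next. NS-DADm mice carried knock-in mutations, among them a point mutation of the deacetylase activation domain in NCoR (gene Ncor1), a corepressor that activates histone deacetylase 3 (HDAC3). The mutations were present in the whole body, so a muscle transcript could differ through other tissues as well as through the muscle itself. A point mutation need not change a read count, and Ncor1 and Hdac3 are not in the table, so the genotype could not be checked.

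Triglyceride in circulating lipoproteins is a source of long-chain fatty acids for muscle, though not the only source. A lipase at the capillary wall releases them, membrane proteins and a cytosolic binding protein carry them into the fiber, and an acyl-CoA synthetase joins them to coenzyme A, which traps them in the cell and commits them to oxidation or storage. Several of these genes are known targets of the peroxisome proliferator-activated receptors (PPARs), nuclear receptors whose repression involves NCoR with HDAC3. The comparison asks which of these genes differ when HDAC3 has lost its enzymatic activity.

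The table lists only genes that the authors had called at a 5% false discovery rate on these same libraries. Each of the 5 was therefore bound to differ between the genotypes. The tests here describe the size and spread of that difference and are no independent evidence for it. A list chosen in this way favors large differences and small spreads, so the ratios may be too large and the intervals too narrow. The measurement is the normalized count, that is, the reads of a gene divided by a size factor of the library. The value of 1 read was taken as the largest step of which all values in a library were whole multiples. It was 0.905 to 1.21 normalized counts, so the listed genes had between 1047804 and 1411470 reads per library. This step was not checked against deposited read totals, and every read number and counting error given here rests on it. The 3 genes with the highest mean count in the table were Ttn, Actn3 and Myl1, which encode proteins of the muscle fiber, as fits the labelled tissue. Libraries of 1 genotype differed from each other by at least 12.4 times the variance that read sampling gives, more than the same reads deposited again would.

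All 5 genes were higher in NS-DADm muscles than in WT muscles. The ratio of the group means ran from 1.42 for Slc27a1 to 1.68 for Lpl, with a median of 1.54. Every one of the 5 passed the limma test with p-values adjusted over the listed genes (adjusted p under 0.05), where 50.9% of the listed genes were called higher. All 709 listed genes passed that test, 361 higher and 348 lower, so passing it was automatic and only the direction varied. The 5 were chosen with earlier results of these data known, so their shared direction may also follow from the choice. In 4 of the 5 every NS-DADm library lay above every WT library, and Acsl1 was the exception. That order held in 49.5% of the listed genes, which is 351 of the 361 higher ones. With p-values adjusted over all 12308 genes that the authors had tested, 3 of the 5 (Lpl, Cd36 and Slc27a1) were under 0.05. Higher by that rule were 34.8% of the listed genes, which is 247 of the 361 higher ones. Genes reached the table by differing, so these shares show only what is usual among listed genes. A gene lower in NS-DADm cannot meet any of these rules, so the counts among the 361 higher genes are the nearer measure. The median ratio of all 361 listed genes that were higher in NS-DADm was 1.62, close to that of the 5. With a ratio of at least 1.5 as the rule in place of a test, 3 of the 5 (Lpl, Cd36 and Fabp3) were past it. So were 32.0% of the listed genes, which is 227 of the 361 higher ones. By none of these rules did the 5 stand above the higher genes of the table. In whole muscle, more cells of a type and more RNA per cell cannot be told apart.

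**Figure D1:**
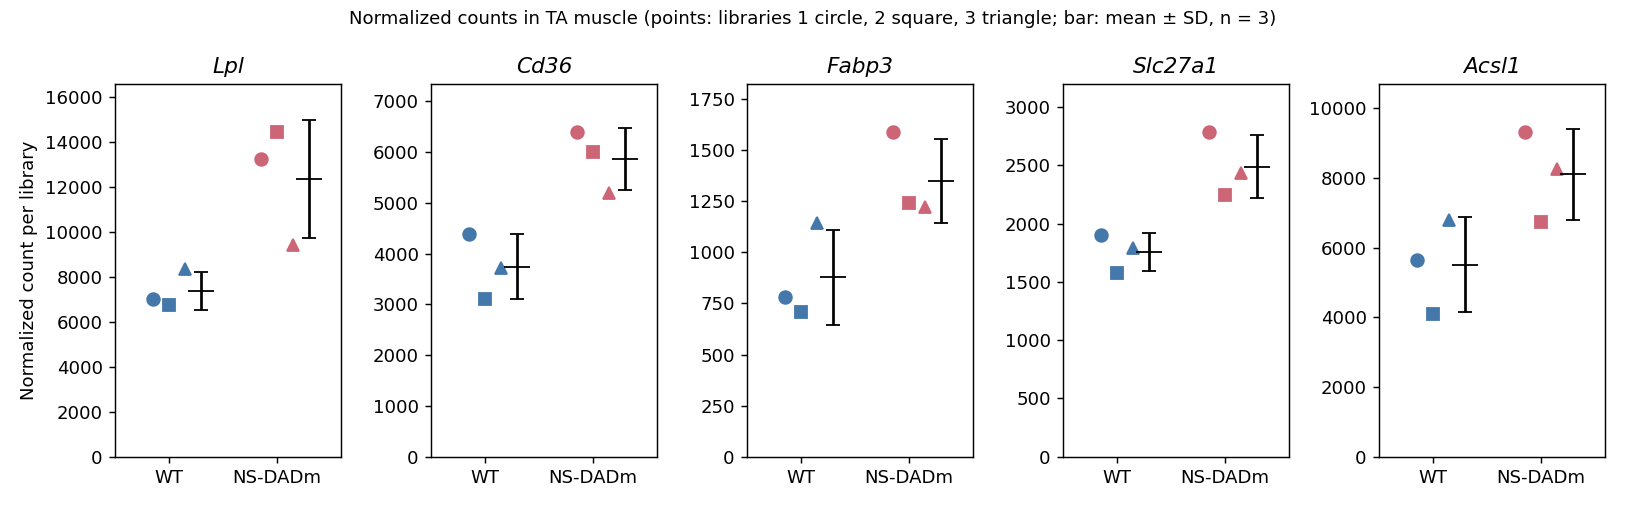
Normalized count of each gene (vertical axes, each starting at 0) in the WT and NS-DADm libraries, with circles, squares and triangles for libraries 1, 2 and 3 and the mean ± SD (n = 3) beside them. The NS-DADm libraries lie above all WT libraries in 4 genes, and in Acsl1 the highest WT library (6809) lies just above the lowest NS-DADm library (6737).

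Lpl encodes lipoprotein lipase, the enzyme that splits triglyceride in chylomicrons and very-low-density lipoproteins and so starts the supply of fatty acids from these particles. It lies on chromosome 8 of GRCm38 from 68880491 to 68907448 (+ strand). Its normalized counts were 6993, 6760 and 8354 in WT1 to WT3 and 13215, 14422 and 9399 in NS-DADm1 to NS-DADm3. NS-DADm3 stood apart from the other NS-DADm libraries, and yet was 1.13 times the highest WT library. The spread was accordingly wider in NS-DADm (coefficient of variation 21.2%) than in WT (11.7%). WT averaged 7369 ± 861 (SD, n = 3) and NS-DADm 12345 ± 2622 (SD, n = 3), a ratio of 1.68. The fitted log2 fold change was 0.73, with a 95% confidence interval from 0.38 to 1.07 (limma adjusted p = 0.00161). Without NS-DADm3 it was 0.91, the highest value when any 1 library was left out.

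Cd36 encodes a membrane glycoprotein that binds long-chain fatty acids and speeds their entry into muscle fibers, and which endothelial cells, adipocytes and macrophages also make. It lies on chromosome 5 from 17781690 to 17888801 (- strand). The WT libraries had 4395, 3115 and 3707 normalized counts and the NS-DADm libraries 6390, 6000 and 5190. No NS-DADm library reached down to the WT range, and the lowest of them was 1.18 times the highest WT library. From a WT mean of 3739 ± 641 (SD, n = 3), the mean was 1.57 times as high in NS-DADm, at 5860 ± 612 (SD, n = 3). The log2 fold change of Cd36 was 0.66, with a 95% confidence interval from 0.36 to 0.95 (limma adjusted p = 0.00132).

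Slc27a1 encodes fatty acid transport protein 1 (FATP1), which promotes uptake and has acyl-CoA synthetase activity of its own. On chromosome 8 it spans 71568882 to 71587302 (+ strand). Counts were 1901, 1577 and 1788 in WT and 2783, 2247 and 2433 in NS-DADm, normalized. Of the 5 genes it had the narrowest spread in WT (coefficient of variation 9.37%) and also the smallest ratio. The means were 1755 ± 165 (SD, n = 3) for WT and 2488 ± 272 (SD, n = 3) for NS-DADm. Its log2 fold change was 0.50, with a 95% confidence interval from 0.25 to 0.75 (limma adjusted p = 0.00192). Quantile normalization, which forces all libraries to the same distribution of values, brought it to 0.29, which no longer passed (limma adjusted p = 0.0649).

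Fabp3 encodes the heart-type fatty acid-binding protein, the main cytosolic carrier of fatty acids in muscle. Its position is chromosome 4, from 130308595 to 130315463 (+ strand). In WT the normalized counts were 783, 709 and 1142, and in NS-DADm 1588, 1243 and 1224. WT3 came close to the NS-DADm libraries, the lowest of which was 1.07 times as high, and the WT coefficient of variation was 26.4%. Mean levels of 878 ± 231 (SD, n = 3) in WT and 1352 ± 205 (SD, n = 3) in NS-DADm gave a ratio of 1.54. Fabp3 had a log2 fold change of 0.64, with a 95% confidence interval from 0.26 to 1.02 (limma adjusted p = 0.00418), and missed the threshold when adjusted over all genes tested (adjusted p = 0.0725). Exons of 2 genes on the opposite strand, Zcchc17 and Gm10570, overlap its exons, and the sources used here do not say whether reads were counted by strand, so a part of its count could belong to them.

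Acsl1 encodes a long-chain acyl-CoA synthetase of the muscle fiber, which activates fatty acids for beta-oxidation. It lies on chromosome 8 from 46471037 to 46536051 (+ strand). The WT libraries had 5647, 4095 and 6809 normalized counts, and 9316, 6737 and 8266 were found in NS-DADm. The genotypes overlapped, since WT3 was above NS-DADm2. Means were 5517 ± 1361 (SD, n = 3) for WT and 8106 ± 1297 (SD, n = 3) for NS-DADm, a ratio of 1.47. The log2 fold change was 0.57, with the lowest lower bound of the 5 (95% confidence interval from 0.18 to 0.96, limma adjusted p = 0.00821). Over all genes tested its adjusted p was 0.143. WT2 was the lowest library by a wide margin, and without it the log2 fold change fell to 0.37 (limma adjusted p = 0.0343). The antisense gene Gm45244 overlaps its exons.

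For a single gene, the exact two-sided permutation test over 3 against 3 libraries cannot give a p below 0.1. The exact permutation p was 0.1 for Lpl, Cd36, Fabp3 and Slc27a1, and 0.2 for Acsl1. The 5 genes had between 779 reads (Fabp3) and 15015 reads (Lpl) per library, and sampling of reads alone would give a coefficient of variation of at most 3.58%, below the 9.37% to 26.4% found between mice of 1 genotype.

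Whether the 5 genes changed by different amounts was tested in each of the 10 pairs, as the difference between NS-DADm and WT in the log2 ratio of 1 gene to the other within each library. The widest gap was between Lpl and Slc27a1, at 0.23 on the log2 scale with a 95% confidence interval from -0.43 to 0.88. In 0 of the 10 pairs was the exact permutation p below 0.3 (adjusted p = 0.875 at the lowest), and all 10 intervals included 0. The width of the intervals differed between pairs, from -0.17 to 0.48 for Cd36 minus Slc27a1 to -0.68 to 0.99 for Lpl minus Acsl1, and differences within a pair's interval were not detectable with 3 mice per genotype.

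The 5 genes tended to share their lowest WT library and their highest NS-DADm library. WT2 was the lowest WT library in 5 of the 5 genes, while it was lowest in 27.5% of all listed genes and in 33.8% of those higher in NS-DADm. NS-DADm1 was the highest NS-DADm library in 4 of the 5, against 35.5% and 29.6%. Lpl departed from the latter, with its highest value in NS-DADm2. The other places were split. WT3 was the highest WT library in 3 genes and WT1 in 2, and NS-DADm3 was the lowest NS-DADm library in 3 and NS-DADm2 in 2. After the genotype means were subtracted, the correlation over the 6 libraries was above 0 in 10 of 10 pairs, with a median Pearson r of 0.52 and a range from 0.07 (Lpl with Slc27a1) to 0.85 (Fabp3 with Acsl1). Over all 250986 pairs of listed genes the median was 0.03, and 129453 pairs were above 0. Over the 64980 pairs of listed genes higher in NS-DADm the median was 0.05, and 34658 pairs were above 0. These correlations share the same 6 libraries and size factors, and the 10 pairs come from only 5 genes, so they are given as a description. Leaving out WT2 lowered the log2 fold change of every one of the 5, to 0.67 for Lpl, 0.53 for Cd36, 0.50 for Fabp3 and 0.43 for Slc27a1 beside the 0.37 of Acsl1.

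**Figure D2:**
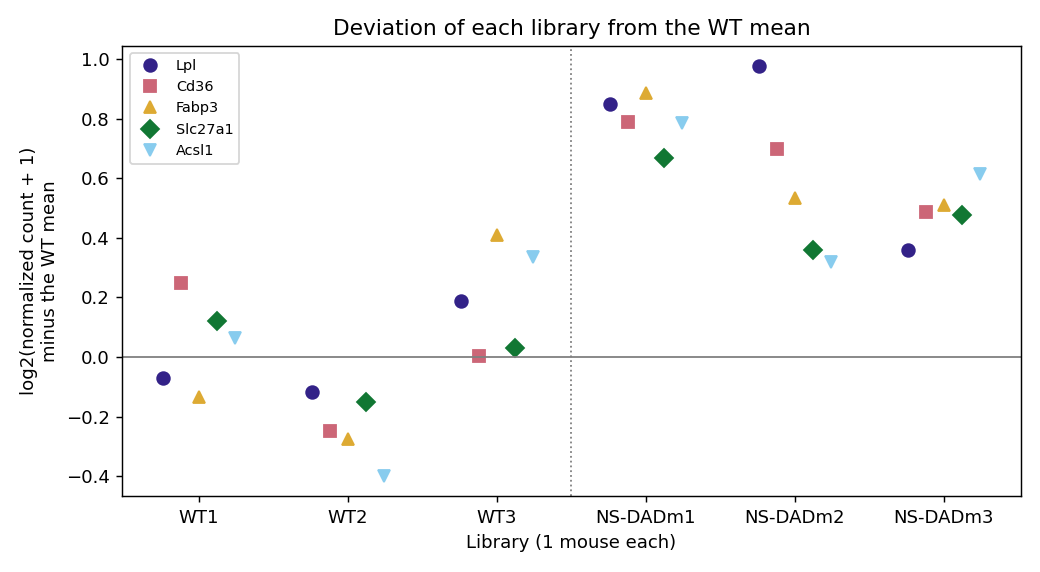
Difference of each library from the WT mean in log2(normalized count + 1) (vertical axis) for the 3 WT and 3 NS-DADm libraries, with 1 symbol per gene. All 5 symbols lie below 0 in WT2, and all 5 lie above 0 in each NS-DADm library.

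By a rule based on likeness alone, the listed genes whose values were most like the 5 were Cenpq, Hat1, Plin5, Pcx and Slc25a34. Likeness was the Pearson r, over the 6 libraries, between a gene's log2 value and the mean of the 5 standardized log2 values, and 621 genes averaging 50 normalized counts or more were compared. The values of r were 0.996 for Cenpq, a centromere protein, 0.991 for Hat1, a histone acetyltransferase, 0.989 for Plin5, a lipid droplet protein, 0.985 for Pcx, pyruvate carboxylase, and 0.979 for Slc25a34, a mitochondrial carrier family member. Since every listed gene differs by genotype, the genotype difference is part of each r. Plin5 had 430, 309 and 455 normalized counts in WT and 1035, 678 and 649 in NS-DADm, with WT2 lowest and NS-DADm1 highest, as in Cd36, Fabp3, Slc27a1 and Acsl1. Cenpq, Hat1, Pcx and Slc25a34 had the same lowest WT and highest NS-DADm library. Genes picked for likeness to the 5 tend to share this order by the way they were picked.

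Levels can be compared between genes only per length, and the length decided the order. With all annotated exons of a gene joined, Fabp3 had 1067 ± 281 (SD, n = 3) and Cd36 1042 ± 178 (SD, n = 3) normalized counts per kilobase in WT, ahead of Lpl at 703 ± 82.2, Acsl1 at 526 ± 130 and Slc27a1 at 301 ± 28.2. Fabp3 and Cd36 did not differ beyond their spread, and the WT libraries of Lpl (645 to 797) and Acsl1 (391 to 650) also overlapped. With the longest coding transcript as the length, a choice made after seeing the data, Lpl came first at 1791 ± 209, followed by Acsl1 at 1416 ± 349, Cd36 at 1100 ± 189, Fabp3 at 1067 ± 281 and Slc27a1 at 628 ± 58.9, and here the ranges of Lpl, Acsl1, Cd36 and Fabp3 each overlapped that of the next. The joined exons of Lpl and Acsl1 measure 10478 and 10483 bases and their longest coding transcripts 4115 and 3897 bases, while the 823 bases of Fabp3 are the same either way. Slc27a1 was lowest per kilobase in both cases and in both genotypes. Summed over the 5 genes with joined exons, the level per kilobase was 3708, 3035 and 4173 in WT and 6337, 5586 and 5035 in NS-DADm, a ratio of means of 1.55 (exact permutation p = 0.1, the smallest possible). The share of each gene in that sum was nearly the same in both genotypes, for example 29.3% and 29.1% for Fabp3 and 19.3% and 20.8% for Lpl in WT and NS-DADm.

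**Figure D3:**
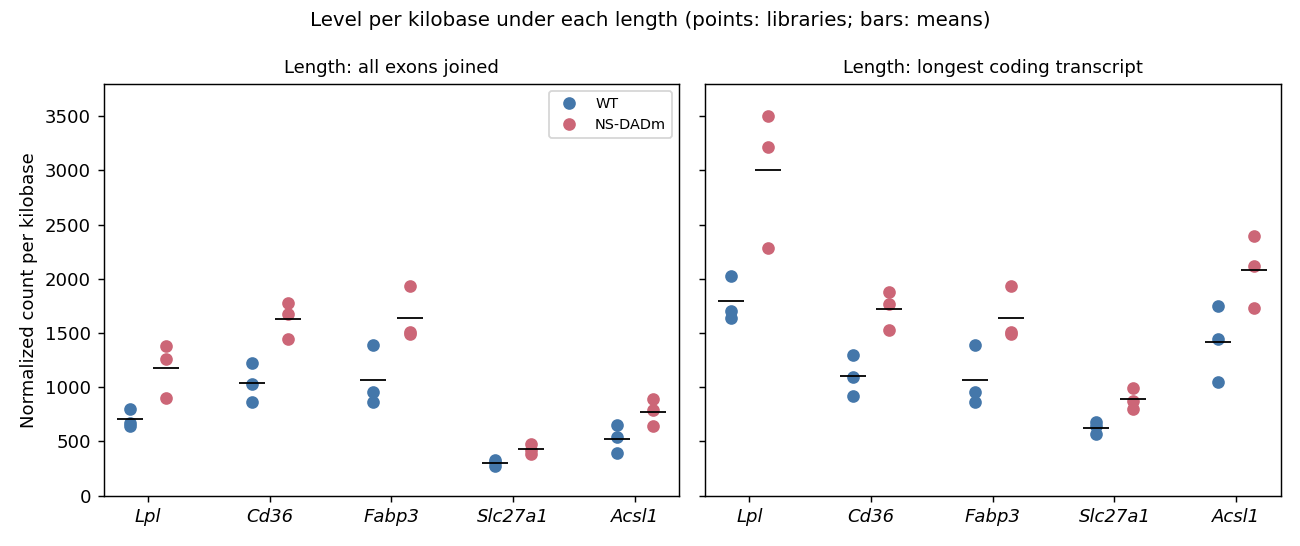
Normalized count per kilobase (vertical axis, from 0) of each gene in each library, with black bars for the group means, for joined exons (left) and for the longest coding transcript (right). Slc27a1 is lowest in both panels, and Lpl moves from the third place (703 in WT) to the first (1791 in WT).

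Of a wider list of 52 genes of fatty acid delivery, uptake, binding and activation, 7 were in the table, the 5 above and Acss1 and Acot11. The 5 had been picked as genes of the table, so this count was partly set in advance. The list, too, was chosen with earlier results of these data known. Of the 12308 genes that the authors had tested, 709 were in the table. How many genes of this list and the later ones had been tested is not known, so such counts are only a description. All 7 were higher by limma (adjusted p under 0.05), and 0 were lower, with a median ratio of 1.56. Of the listed genes 50.9% were higher. The median ratio was 1.30 over all listed genes, which include the lower ones, and 1.62 over the 361 higher ones. Adjusted over all genes tested, 4 of the 7 were under 0.05, Acss1 being the fourth. By that rule 34.8% of the listed genes were higher, which is 247 of the 361 that were higher by limma over the table. Acss1, the mitochondrial synthetase that activates acetate rather than long fatty acids, had 328, 309 and 281 normalized counts in WT and 764, 817 and 737 in NS-DADm, the largest ratio of the 7 at 2.53 (limma log2 fold change 1.34, adjusted p = 1.54e-05). Acot11, a thioesterase that splits acyl-CoA back into fatty acid and coenzyme A, had 140, 138 and 186 in WT and 271, 253 and 203 in NS-DADm, a ratio of 1.56. One family member each was listed of the 6 Slc27a transporters, the 6 Fabp genes and the 5 Acsl synthetases on the list. The lipase partners Gpihbp1, which holds lipoprotein lipase at the capillary wall, Lmf1, which the lipase needs to mature, and Angptl4, its inhibitor, were not in the table, and neither were Vldlr, Cav1 and Got2. A gene that is not in the table was either not tested or not called, and has no value here.

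Beside 709 of all 12308 tested genes, 6 of 24 genes of the carnitine shuttle and beta-oxidation, further along the pathway, were in the table. By limma 5 of them were higher and 1, Acads, was lower, with a median ratio of 1.33, again beside 50.9% higher and 1.30 among all listed genes. Acadl missed the threshold under quantile normalization (limma adjusted p = 0.0649) and over all genes tested (adjusted p = 0.110). The ratios were 1.45 for Acadm, 1.41 for Echs1, 1.34 for Hadh, 1.33 for Acadl and 1.32 for Hadha, and 0.68 for Acads. The 5 higher ones were all below 1.62, the median ratio of the 361 listed genes higher in NS-DADm. The confidence intervals of Lpl, Cd36, Fabp3, Slc27a1 and Acsl1 overlapped those of the 5 higher beta-oxidation genes, and the difference between the lists was not tested. Of 26 genes of lipid droplets, lipolysis and lipid synthesis, 3 were listed and were higher, with ratios of 1.98 for Plin5, 1.47 for Lipe and 1.35 for Me1 (50.9% of the listed genes were higher). Over all genes tested 1 of the 3, Plin5, passed by limma, while Lipe (adjusted p = 0.0659) and Me1 (adjusted p = 0.0864) did not, and Me1 also missed under quantile normalization (adjusted p = 0.153). Cpt1b, which forms the acylcarnitine that enters mitochondria, was not in the table.

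**Figure D4:**
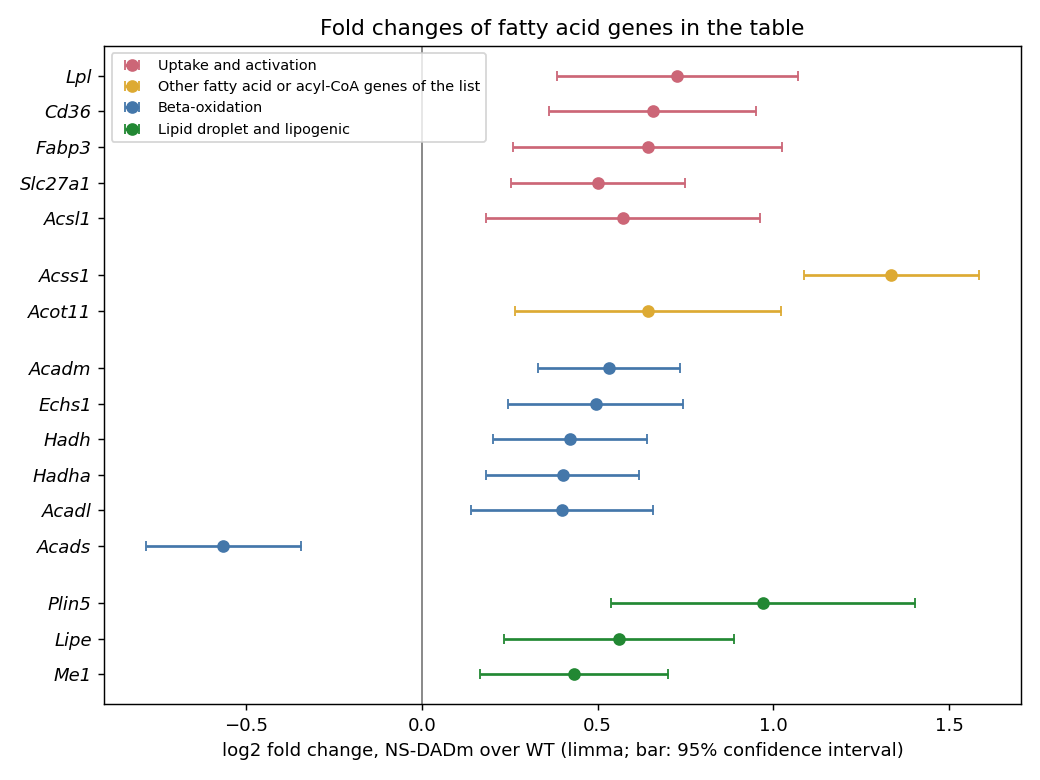
Limma log2 fold change of NS-DADm over WT (horizontal axis) with its 95% confidence interval for the 5 uptake and activation genes, the other 2 listed genes of the wider list, and the listed genes of beta-oxidation, lipid droplets and lipid synthesis. Acads, at -0.56, is the only gene left of 0, and the intervals of the 5 uptake and activation genes overlap one another.

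Cell types other than the fiber express some of these genes, and Lpl and Cd36 in particular are also made by adipocytes and macrophages. None of 20 endothelial, 15 adipocyte or 12 satellite cell and fibroblast markers was in the table (0 of each), so they have no values here. Of 16 macrophage markers 1 was listed, the mannose receptor Mrc1, at 126, 120 and 144 normalized counts in WT and 276, 296 and 224 in NS-DADm (ratio 2.04, limma adjusted p = 0.000332). Its part in the higher Lpl and Cd36 was not tested. Of 22 fiber markers 3 were listed. Ttn and Actn3 were higher at ratios of 1.46 and 1.36 and Myl1 lower at 0.76, and all 3 differences were 0 after quantile normalization and missed the threshold when adjusted over all genes tested.

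Promoter windows, from 250 bases before to 50 bases after an annotated start, were searched on both strands in RefSeq sequences of build GRCm38.p6. There were 7 windows for 4 of the genes, Cd36 and Fabp3 with 1 each, Acsl1 with 2 and Slc27a1 with 3, and none for Lpl. The Cd36 window lies inside the span of the gene given above, so it belongs to an internal annotated start. No window covered the 5′ end of Cd36 at 17888801. The nuclear receptor half-site AGGTCA was in 1 of the 7 windows, that of Cd36, and in 16.3% of 32851 windows of all genes. Its direct repeat with 1 base of any kind in between (DR1, the form that PPARs bind with their partner RXR) was in 0 of the 7 and in 0.0396% of all windows. With up to 2 mismatches it was again found in the Cd36 window (3.86% of all windows). The E-box CACGTG was in 1 window, the most downstream of the 3 of Slc27a1, and in 7.15% of all, and the TATA box TATAAA in 0 of the 7 and 13.6% of all. The 2 windows with a match are shown here, as the sequences of these genes in which the searched letters occur, 5′ to 3′ on the strand of the gene and up to the base before the start. Capitals mark the half-site (read on the other strand as TGACCT, its first base at -228 from the start) and the DR1 with 2 mismatches (first base at -63, on the other strand) in Cd36, chr5:17835897-17836146 (- strand), and the E-box (first base at -202) in Slc27a1, chr8:71570344-71570593 (+ strand).
Cd36: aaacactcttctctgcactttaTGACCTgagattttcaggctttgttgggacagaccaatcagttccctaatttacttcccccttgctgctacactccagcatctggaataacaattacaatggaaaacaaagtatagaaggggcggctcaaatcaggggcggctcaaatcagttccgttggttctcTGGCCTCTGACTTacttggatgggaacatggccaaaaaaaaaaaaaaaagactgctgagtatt
Slc27a1: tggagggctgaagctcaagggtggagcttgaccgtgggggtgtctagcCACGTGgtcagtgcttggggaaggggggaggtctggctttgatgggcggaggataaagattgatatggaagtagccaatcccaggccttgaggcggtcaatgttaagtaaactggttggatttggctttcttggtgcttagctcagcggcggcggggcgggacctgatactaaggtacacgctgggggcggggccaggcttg
A match in these letters is a description of the window and not a binding site, and elements further from the start were not searched.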

How the data were processed

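Total RNA of the TA muscle was sequenced. The paper's methods name STAR for alignment to GRCm38 and DESeq2 for testing. The tools in the submitters' processing notes are DESeq2 (1.8.2), HTSeq and TopHat2 (2.1.0), with mm10, so the aligner is unsettled, and neither the annotation release nor the total depth is stated there or in the paper. The deposited normalized counts, a signal that is never negative, are reads that the authors divided by a size factor per library, and every value was a whole multiple of 1 read within 0.01 reads. The authors' deposited p-values, raw and adjusted, served only to find how many genes they had tested (12308). Columns with their group means, fold changes and log2 fold changes of NS-DADm over WT were not used.

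Genotypes were compared on log2(normalized count + 1) over all 709 genes, without a filter on low values, by limma (version 3.58.1, R 4.3.3). The test was two-sided and used a trend of variance on mean level, and p-values were adjusted after Benjamini and Hochberg over the table. Adjustment over all genes tested gave each unlisted gene the largest possible p. The fit was tested on simulated data. Ratios are of group means, and exact permutation tests over libraries used scipy 1.17.1. Positions, exon lengths and overlaps are from GENCODE M21, which matched 706 of the 709 identifiers. The genes and lists were chosen with earlier results of these data known. Named genes are the 5 genes, all listed members of 10 gene lists, and the 5 genes most like them. Alternatives covered quantile normalization, pseudocounts of 0.5 and 5, a mean of at least 100, no trend, a replicate block, the adjustment and leaving out each library. Protein motifs were not analysed here. One item of the genotype is not reported here.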

Additional observations from a re-analysis of the deposited data

How the results depend on the processing

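By limma 5 of the 5 genes were called higher, and 4 under quantile normalization, where Slc27a1 missed the threshold. The count was 3 when p-values were adjusted over all genes the authors had tested, where Fabp3 and Acsl1 missed it, and also 3 with a ratio of at least 1.5 in place of the test, a rule chosen after seeing the data. In the wider list 7 genes were called, and 4 with the adjustment over all genes tested, which raises every p by its construction. Leaving out each library in turn gave log2 fold changes of 0.60 to 0.91 for Lpl, 0.53 to 0.78 for Cd36, 0.50 to 0.85 for Fabp3, 0.42 to 0.57 for Slc27a1 and 0.37 to 0.74 for Acsl1, and 5 of the 5 passed each time. All 709 listed genes passed the main fit, having been selected on these libraries, so passing an alternative sets the 5 apart from no others. The shares of listed genes passing under quantile normalization, the replicate block and each left-out library are not given here. Of 65 alternative values of the 5 genes, 62 stayed past the threshold in the same direction and 3 did not, as named above. Over all 27 named genes 334 of 350 did, 13 missed the threshold, and 3 lost their direction, Ttn, Actn3 and Myl1, whose difference became 0 under quantile normalization because equal ranks take equal values. With the replicate block 5 genes were called. Libraries with the same number deviated together with r of -0.15, 0.15 and 0.05 over the listed genes, so mice were not treated as paired. Over the 5 genes alone r was -0.47, 0.72 and 0.14 for numbers 1, 2 and 3, each from only 5 values. A DR1 was found in 0 windows exactly and in 1 with up to 2 mismatches. The planned edgeR and DESeq2 alternatives were not run, because the table holds too few low values to check the recovered reads.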

Other observations

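Of 30 nuclear receptors, corepressor subunits and PPAR-responsive genes on a further list, 3 were in the table, and all 3 were higher in NS-DADm muscles by limma, as were 50.9% of the listed genes, all of which passed that test in 1 direction or the other. Of all 12308 genes tested, 709 were in the table. Ppard, the PPAR that predominates in skeletal muscle, had 750, 814 and 811 normalized counts in WT and 1176, 1236 and 953 in NS-DADm, with no overlap and a ratio of 1.42. Esrrg, an orphan nuclear receptor of oxidative muscle, had 485, 372 and 521 in WT and 863, 900 and 724 in NS-DADm (limma log2 fold change 0.86). Tbl1xr1, a subunit of the NCoR complex, rose from 629 ± 66.7 (SD, n = 3) to 1102 ± 167 (SD, n = 3). Ppara, Pparg, Ppargc1a, Pdk4, Ucp3 and Angptl4, which are known to respond to or act with PPARs, were not in the table and have no value here. No relation between these genes and the fatty acid genes was tested.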
